A study of Mus musculus with 4 samples.

Results

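Caspases are cysteine proteases that cut their targets after aspartate residues, and 6 of their genes, Casp1, Casp4, Casp2, Casp6, Casp8 and Casp9, were followed here across 4 expression arrays of sorted mouse T cells. They were taken as all probe sets that the platform annotation gives to a single one of these symbols, which gave 7 probe sets for 6 of the 12393 named genes on the array, with a pair of probe sets for Casp9. The group was picked because Casp1 and Casp4 differed between the labelled genotypes in opposite directions in CD4 and CD8 cells, so all differences between these arrays are given as a description, without a test. Spleen cells of C57Bl/6 mice, Gfi1 knockout or wildtype, untreated, were stained for CD44, CD4 and CD8 and sorted by flow cytometry, and the stated aim was a comparison of naive cells. All 4 samples are described as CD44 low. The groups are CD4 knockout, CD8 knockout, CD4 wildtype and CD8 wildtype, with 1 array each, and each array holds RNA pooled from 2 mice, so the spread between animals cannot be measured. The knockout allele and the age of the mice are not stated in the labels, and the letters N and M that end the titles of the knockout and of the wildtype samples, respectively, are not explained.

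Caspase 1 is the inflammatory caspase that inflammasomes activate. It cuts the precursors of the cytokines IL-1beta and IL-18 and the pore protein gasdermin D. Caspase 4 of the mouse, also known as caspase 11, responds to cytosolic lipopolysaccharide and cuts gasdermin D as well. In the apoptotic branch, caspase 8 starts the cascade below death receptors and caspase 9 below the mitochondria, caspase 6 is an executioner that cuts lamins, and caspase 2 is activated in the PIDDosome, a complex of PIDD1 and the adaptor encoded by Cradd. T cells use this machinery when an expanded population contracts, and caspase 8 is also needed for the survival of activated T cells.

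The arrays bear the subset labels out and go against the description of all samples as CD44 low. Cd4 read 5470 and 5901 on the CD4 arrays and lay below the floor on both CD8 arrays, where the floor is the 40th percentile of all signals (93.9), used as the lower limit of a readable signal. Cd8a read 16639 and 15920 on the CD8 arrays and was under the floor in CD4 cells, and Cd8b1 read 25715 and 26222 against 971 (knockout) and 312 (wildtype) on the CD4 arrays, above the floor there. Cd44 read 196 (CD4) and 252 (CD8) on the knockout-labelled arrays, against 8136 (CD4) and 5740 (CD8) on the wildtype-labelled ones. Genotype is therefore given as labelled, and this difference in Cd44 goes along with every difference between the labelled genotypes. Between 58.4% and 61.6% of probe sets lay above the floor on each array, and the median signal was 189 to 235.

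Casp1 and Casp4 are direct neighbours on mouse chromosome 9, followed there by Casp12. The 250 bases before each start are shown because these neighbours had nearly the same profile over the 4 arrays, though they were picked for a shared pattern on them. Both come from RefSeq (GRCm38.p6), lie on the plus strand and are written 5′ to 3′, at chr9:5298267-5298516 for Casp1 and chr9:5308599-5308848 for Casp4. Capitals mark matches to any of 4 motifs searched on both strands: AATC, the core of the Gfi1 recognition sequence; TTCNNNGAA, a form of the STAT element; GAAANNGAA, a short form of the interferon response element; and GGGANNNCC, a short form of the NF-kB element.
Casp1: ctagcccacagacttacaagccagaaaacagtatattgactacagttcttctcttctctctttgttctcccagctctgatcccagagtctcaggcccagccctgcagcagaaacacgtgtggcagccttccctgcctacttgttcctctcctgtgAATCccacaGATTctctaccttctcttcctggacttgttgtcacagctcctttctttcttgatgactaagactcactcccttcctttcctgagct
Casp4: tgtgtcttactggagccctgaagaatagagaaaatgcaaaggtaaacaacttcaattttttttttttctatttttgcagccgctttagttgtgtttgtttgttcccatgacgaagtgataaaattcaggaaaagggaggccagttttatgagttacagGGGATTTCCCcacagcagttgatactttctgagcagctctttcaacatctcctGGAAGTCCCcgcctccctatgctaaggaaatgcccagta
In the Casp1 window AATC was found at 2 places, starting 95 and 86 bases before the start, and none of the other motifs was found. In the Casp4 window GGGANNNCC was found at 3 places, starting 92, 91 and 39 bases before the start, of which the first pair overlaps and reads from opposite strands. The single AATC match in the Casp4 window, on the minus strand at 90 bases before the start, lies inside that overlapping pair. Among 32851 windows of this length in the RefSeq promoter table, AATC was present in 69.0%, GGGANNNCC in 15.8%, GAAANNGAA in 7.13% and TTCNNNGAA in 7.02%. AATC was also found before each of the other 4 caspase genes, at 1 to 3 places, and the only further match there was GGGANNNCC before Casp2. A match to so short a motif is a description of the letters and does not show binding.

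Casp1, the inflammasome protease gene, was highest in CD4 cells labelled wildtype and lowest in CD8 cells labelled wildtype. Its signal was 1605 on the wildtype-labelled CD4 array, 447 on knockout CD8, 383 on knockout CD4 and 206 on wildtype CD8. The arrays labelled knockout lay close together, between the wildtype ones. In CD4 cells Casp1 was 4.19-fold lower on the array labelled knockout (log2 -2.07), and in CD8 cells it was 2.17-fold higher (log2 1.12). Read the other way, CD8 cells had 7.79-fold less Casp1 signal than CD4 cells on the arrays labelled wildtype, and 1.17-fold more on those labelled knockout.

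Casp4, the sensor of cytosolic lipopolysaccharide, had the same order of extremes. It read 1129 on the wildtype-labelled CD4 array, 315 on knockout CD8, 311 on knockout CD4 and 127 on wildtype CD8. The value on wildtype CD8 was close to the floor of 93.9, and the arrays labelled knockout were level with each other. Casp4 was 3.63-fold lower on the array labelled knockout in CD4 cells (log2 -1.86) and 2.48-fold higher in CD8 cells (log2 1.31). CD8 cells had 8.90-fold less signal than CD4 cells on the arrays labelled wildtype, against 1.01-fold more on the arrays labelled knockout.

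**Figure D1:**
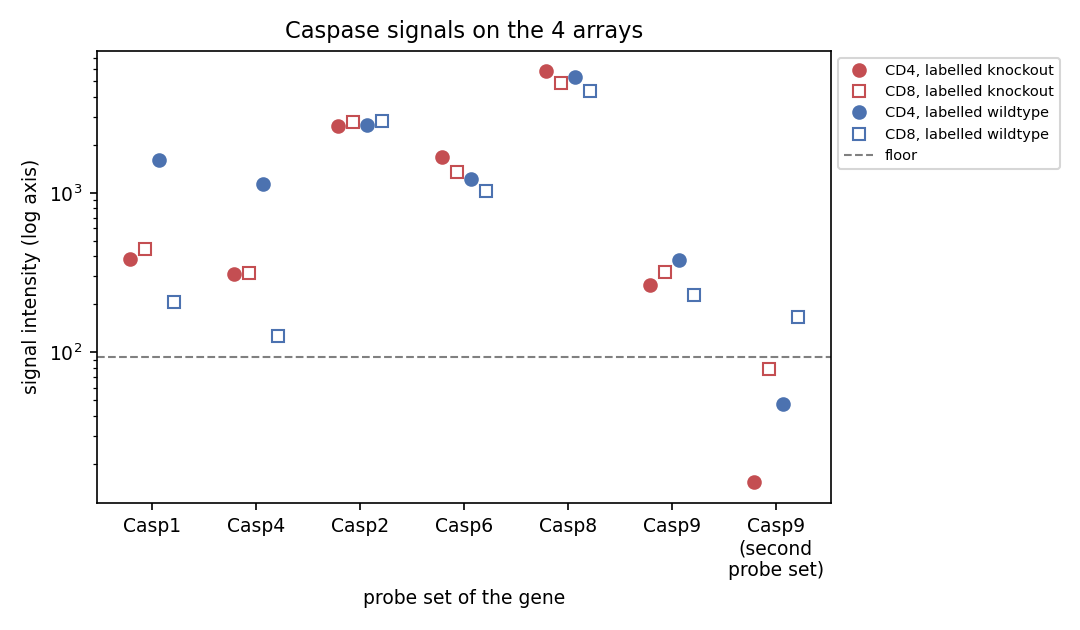
Signal intensity (log axis) of each caspase probe set on the 4 arrays, 1 point per array, with red for the labelled knockout, blue for the labelled wildtype, filled circles for CD4 and open squares for CD8 cells; the dashed line is the floor of 93.9. Casp1 and Casp4 spread from 206 to 1605 and from 127 to 1129, whereas the 4 points of Casp2 lie between 2636 and 2815.

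With the floor, few genes ran the way of Casp1 and Casp4. At least 2-fold lower in CD4 and at least 2-fold higher in CD8 cells labelled knockout were 8 of 7613 genes (0.105%), the pair being 2 of them by choice. The other 6 were Anp32a, Ccr9, Egln3, Gpr155, Itgae and Tmem144, which were named after their values were seen. The count depends on how low signals are treated: it was 38 with the floor at the 25th percentile (35.6), 94 with log2 of the signal plus 16, 287 without a floor and 2 with the floor at the 60th percentile. Casp1 and Casp4 are not among those last 2, since neither had a value in CD8 cells at that floor. The reverse pattern was found for Plbd1 alone (0.0131%). By the difference between the subsets' folds, Casp1 (log2 3.18) and Casp4 (log2 3.17) stood at places 14 and 15 of 7613 genes from the top. Since the pair was picked on these very values, their place shows only how they were chosen.

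**Figure D2:**
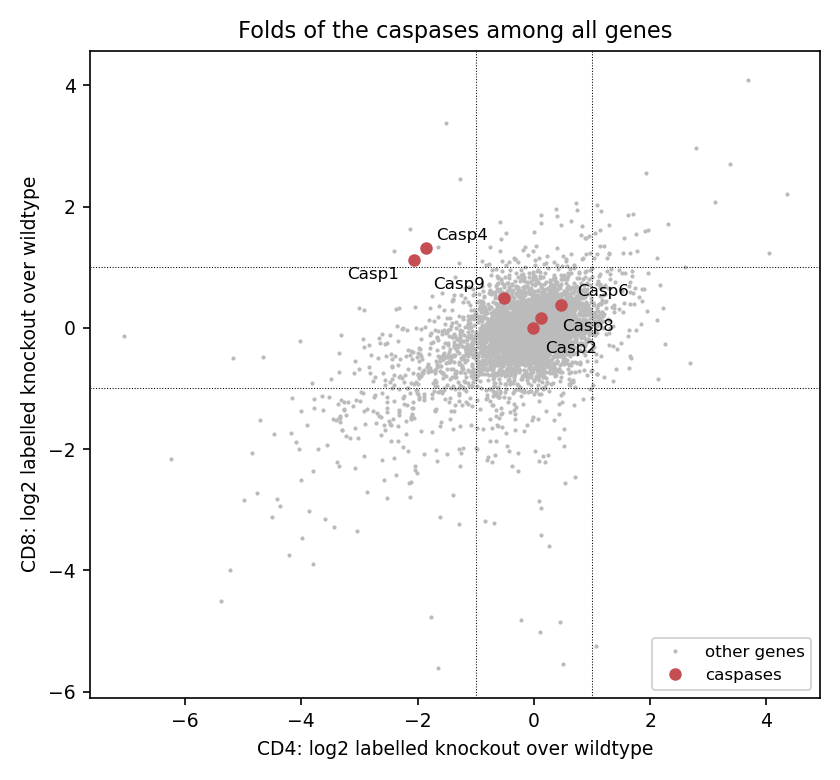
Log2 ratio of the array labelled knockout over the array labelled wildtype in CD4 cells (horizontal) and CD8 cells (vertical), 1 grey point per gene with a value in both subsets (7613 genes), caspases in red; dotted lines mark 2-fold. Casp1 and Casp4 lie at the upper left, at log2 -2.07 and -1.86 in CD4 and 1.12 and 1.31 in CD8 cells, and the other 4 caspases lie inside the 2-fold lines.

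The gene with the profile nearest to Casp1 was Casp4, and the reverse held too. Both were picked for a shared pattern on these same arrays, so their likeness is in part set by that choice. Likeness was measured as the root mean square difference in log2 signal over the 4 arrays, after each gene was centred on its own mean, among 8596 genes, leaving out those at the floor on every array; 4 arrays allow only a coarse ranking. Casp1 and Casp4 differed by 0.14. Next to Casp1 came Tnf, the tumour necrosis factor gene (0.29), Phlda1 (0.32), Syt11, which encodes a synaptotagmin (0.35), and Hic1, a transcriptional repressor gene (0.37). Next to Casp4 came Phlda1 (0.39), Syt11 (0.40), Tnf (0.40) and Sdcbp2 (0.43). Tnf read 998 on wildtype CD4, 245 on knockout CD8, 242 on knockout CD4 and 194 on wildtype CD8. All 5 of these genes were highest on the array labelled wildtype CD4 and lowest on wildtype CD8. This follows largely from their choice by likeness to Casp1 and Casp4. The low end could be slight: Sdcbp2 read 184 on wildtype CD8 against 198 on knockout CD8.

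**Figure D3:**
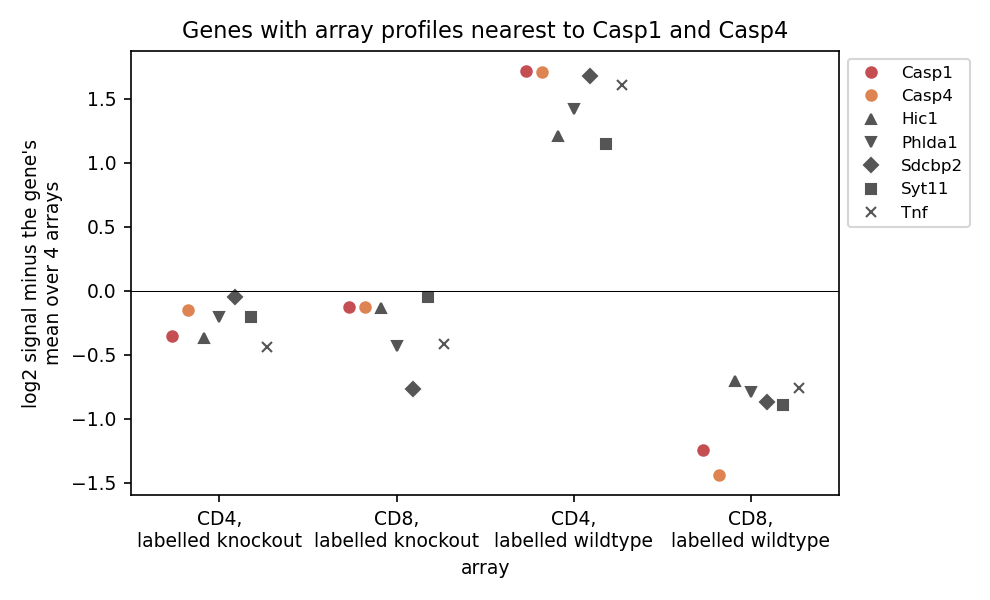
Log2 signal of each gene minus its own mean over the 4 arrays (vertical), for Casp1, Casp4 and the 5 genes nearest to either by profile, 1 point per gene and array. The array labelled wildtype CD4 lies above the mean and wildtype CD8 below it for each of the 7 genes, and the arrays labelled knockout lie between. The 5 genes were chosen for this likeness.

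Casp8, the initiator below death receptors, and Casp6, an executioner, were somewhat higher on the arrays labelled knockout and higher in CD4 than in CD8 cells. Casp8 read 5786 on knockout CD4, 5311 on wildtype CD4, 4889 on knockout CD8 and 4368 on wildtype CD8. Its log2 fold between the labelled genotypes was 0.12 (CD4) and 0.16 (CD8), and no pair of arrays differed by more than 1.32-fold. Casp6 read 1682 on knockout CD4, 1343 on knockout CD8, 1221 on wildtype CD4 and 1029 on wildtype CD8. The log2 fold of Casp6 was 0.46 (CD4) and 0.38 (CD8), under 1.5-fold in either subset as deposited. With the arrays centred on their medians it was 0.78 (CD4) and 0.60 (CD8), above 1.5-fold. The median of all genes was then 0.28 (CD4) and 0.19 (CD8).

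Casp2 was level. It read 2636 on knockout CD4, 2667 on wildtype CD4, 2796 on knockout CD8 and 2815 on wildtype CD8, a span of 1.07-fold. Its level relative to other genes depends on the scaling: with the arrays centred on their medians, Casp2 was at a log2 fold of 0.30 (CD4) and 0.20 (CD8), where the median of all genes moved from -0.02 to 0.28 in CD4 and from -0.02 to 0.19 in CD8 cells. Under 1.5-fold apart in both subsets were Casp2, Casp6, Casp8 and Casp9 as deposited, as were 71.2% of all genes with a value in both subsets.

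Casp9, the initiator in the apoptosome, was measured by a pair of probe sets that did not run alike. The brighter one read 379 on wildtype CD4, 321 on knockout CD8, 265 on knockout CD4 and 227 on wildtype CD8. These values put the arrays in the order of Casp1 and Casp4, with log2 folds of -0.52 (CD4) and 0.50 (CD8). The other probe set read 166 on wildtype CD8 and lay below the floor on the other 3 arrays, at 78.8, 47.3 and 15.3 on knockout CD8, wildtype CD4 and knockout CD4. On that probe set wildtype CD8 was the highest array, whereas on the brighter one it was the lowest.

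At the 2-fold mark, 2 of 6 caspases were lower in CD4 cells labelled knockout, against 7.72% of all 8124 genes with a value in that comparison, and 0 were higher, against 2.07%. In CD8 cells 2 of 6 were higher, against 1.21% of 8085 genes, and 0 were lower, against 4.24%. Both pairs are Casp1 and Casp4, on which the choice rested, so nothing is read from these counts. Between the subsets, 2 of 6 were lower in CD8 than in CD4 cells on the arrays labelled wildtype (5.15% of all genes) and 0 were higher (3.2%), and on the arrays labelled knockout 0 of 6 were lower (1.4%) or higher (2.14%). The median log2 fold of the 6 was -0.27 (CD4) and 0.44 (CD8), and that of all genes was -0.02 in either subset.

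Of the other caspase genes, Casp12 and Casp14 lay below the floor on all 4 arrays. Cflar encodes c-FLIP, a caspase-like protein without protease activity that restrains caspase 8, and its gene is the neighbour of Casp8 on chromosome 1. It was near level on its brightest probe set, between 1136 and 1275, with log2 folds of 0.03 and 0.17 in CD4 and CD8 cells. Further probe sets of Cflar gave log2 values from -0.63 to 0.50 in CD4 and from -0.49 to 0.14 in CD8 cells.

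Of 15 inflammasome genes on the array, 13 lay above the floor on at least 1 of the 4 arrays. In CD4 cells 0 of 11 with a value were at least 2-fold higher and 2 lower on the array labelled knockout, and in CD8 cells 1 was higher and 1 lower. Over all genes these shares were 2.07% higher and 7.72% lower in CD4 cells, and 1.21% higher and 4.24% lower in CD8 cells, which is also the background for the counts of the lists that follow. The median log2 folds were -0.25 and -0.28, against -0.02 for all genes in either subset. Centring the arrays on their medians, which raises the folds of a subset alike, put the CD4 value at 0.06 and that of all genes at 0.28. Pycard, the adaptor ASC that recruits caspase 1, was bright and near level, at 8712 on knockout CD4, 10385 on wildtype CD4, 7262 on knockout CD8 and 7703 on wildtype CD8 (log2 folds of -0.25 and -0.09). The lower genes in CD4 cells were Naip2, whose product detects bacterial secretion systems (3.16-fold), and Nek7, which encodes a kinase needed by the NLRP3 inflammasome (2.01-fold). Further probe sets of Nek7 gave log2 values of -0.98 and -0.37 in CD4 cells, lower as well but under 2-fold. Naip2 belongs to a family of near-identical genes, so its signal may include other members. Gbp2, an interferon-induced GTPase gene, was 2.20-fold higher in CD8 cells labelled knockout and 1.77-fold higher in CD4 cells. Il1b, the gene of the main caspase 1 substrate among cytokines, read 287 on wildtype CD8, 119 on knockout CD4 and 100 on knockout CD8, and was below the floor on wildtype CD4. Txnip, whose product binds thioredoxin, had log2 folds of 0.88 (CD4) and -0.28 (CD8). The other probe set of Txnip gave 1.02 (CD4), past 2-fold, and -0.68 (CD8), so the count of higher genes in CD4 cells depends on the probe set. Nlrp3 lay below the floor on all 4 arrays.

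Upstream of caspase 8, the death ligand and its receptor ran in opposite directions. Fasl, which encodes the ligand, read 1879 on wildtype CD4, 656 on wildtype CD8, 325 on knockout CD4 and 61.0, below the floor, on knockout CD8. It was thus 5.78-fold lower in CD4 cells labelled knockout and at least 6.99-fold lower in CD8 cells. Fas, its receptor, read 3059 on knockout CD8, 1930 on knockout CD4, 1097 on wildtype CD8 and 1052 on wildtype CD4, or 2.79-fold higher in CD8 and 1.84-fold higher in CD4 cells labelled knockout. Tnfrsf1b, a receptor for tumour necrosis factor, was 3.69-fold lower (CD4) and 1.63-fold lower (CD8). Its other probe set gave log2 values of -0.84 (CD4) and -1.16 (CD8), so the subset past 2-fold depends on the probe set. The adaptor gene Tradd (log2 0.05 and -0.23) and the necroptosis kinase gene Ripk3 (-0.52 and 0.22) were less than 2-fold apart. Of 10 genes above the floor, 0 were at least 2-fold higher and 2 lower in CD4 cells, and 1 was higher and 1 lower in CD8 cells. The medians were -0.35 and -0.20 (the CD8 median was 0.02 with median centring, against 0.19 for all genes).

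Around caspase 9, Apaf1 was the gene of its list that passed 2-fold. Apaf1 forms the apoptosome, and its signal was 473 on knockout CD4 against 1001 on wildtype CD4 (2.11-fold lower) and 555 on knockout CD8 against 700.1 on wildtype CD8 (1.26-fold lower). The other probe set of Apaf1 was lower as well, by log2 values of -1.29 and -0.91. Cycs, which encodes cytochrome c, had log2 folds of 0.05 and 0.15, and Diablo, an antagonist of inhibitors of apoptosis, 0.07 and 0.05. Of the 7 genes of this list above the floor, 1 was at least 2-fold lower in CD4 cells and 0 in CD8 cells, and 0 were 2-fold higher in either; the other 6 were under 1.5-fold apart.

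The inhibitor of apoptosis genes Xiap (log2 0.19 and 0.12) and Birc3 (0.18 and 0.37) were under 2-fold apart. For Birc3 a dimmer probe set gave 1.17 and 0.87. Birc5 encodes survivin, which also serves in cell division, and was 26.2-fold lower (CD4) and 2.88-fold lower (CD8) labelled knockout. It read 123 on knockout CD4 and 461 on knockout CD8, against 3230 on wildtype CD4 and 1325 on wildtype CD8. Birc5 was the only one of 5 genes in this list at least 2-fold apart in either subset. In the PIDDosome list, Pidd1 went lower in CD4 (log2 -0.85) and higher in CD8 cells (0.52), at signals between 123 and 221, and Cradd had log2 folds of 0.22 and 0.11; neither was 2-fold apart.

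Genes whose products caspases cut were mostly under 2-fold apart. Of 8 above the floor, 1 was at least 2-fold higher and 1 lower in CD4 cells, and 0 in either direction in CD8 cells. Lmnb1, the lamin B1 gene, was 2.36-fold lower (CD4) and 1.57-fold lower (CD8). Its other probe set gave log2 values of -1.45 (CD4) and -1.17 (CD8), so the count in CD8 cells depends on the probe set. Gsn, the gelsolin gene, was 2.24-fold higher (CD4) and 1.31-fold higher (CD8). Further probe sets of Gsn gave log2 values from -0.17 to 0.94 in CD4 and from -0.40 to 0.32 in CD8 cells, all under 2-fold. Parp1, the DNA repair enzyme whose cleavage marks apoptosis, had log2 folds of -0.19 and -0.22, and the kinase gene Rock1 0.32 and 0.24. The arrays measure RNA, so they carry no information on whether any of these proteins was cut.

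**Figure D4:**
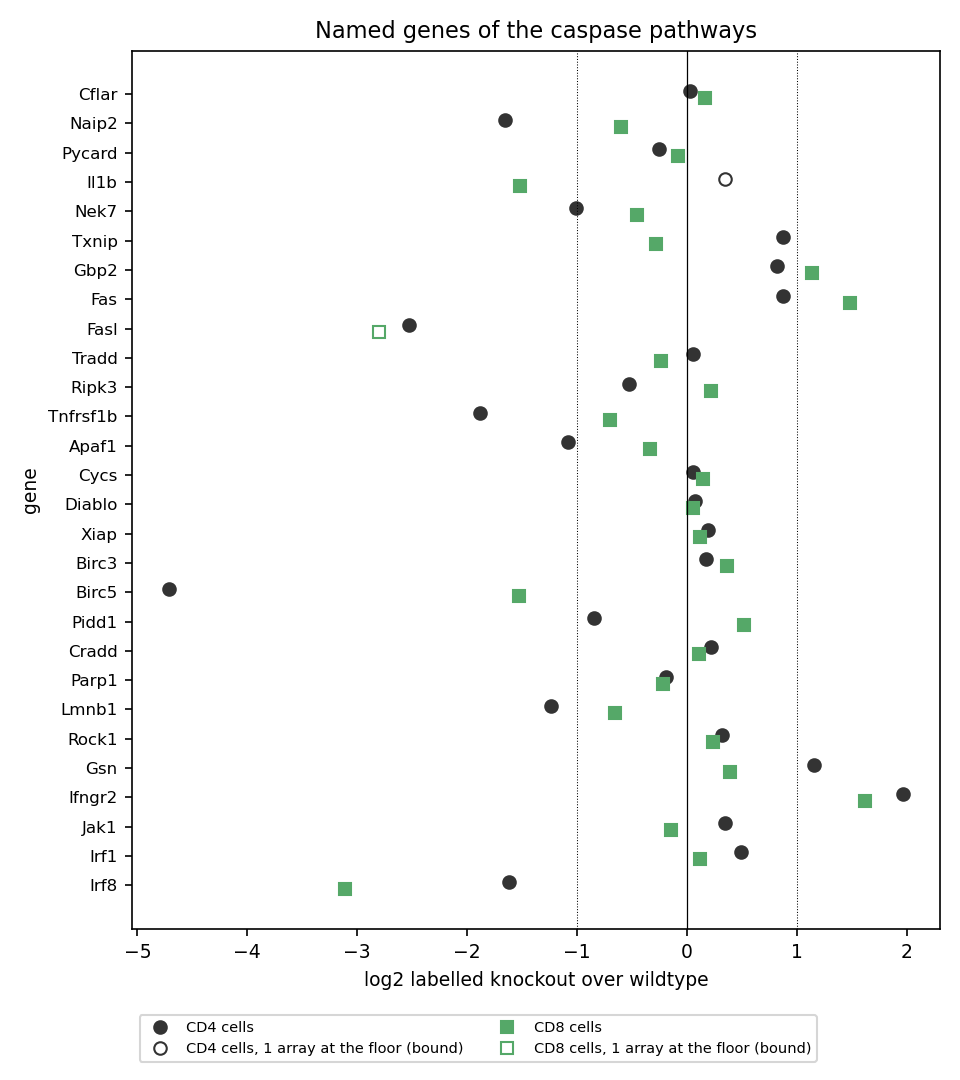
Log2 ratio of the array labelled knockout over the array labelled wildtype (horizontal) for each named pathway gene, with dark circles for CD4 and green squares for CD8 cells; open symbols have 1 array at the floor and are bounds, and dotted lines mark 2-fold. Birc5 (log2 -4.71 in CD4) and Fasl lie far to the left, Fas and Ifngr2 to the right.

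Genes of the interferon pathway, which induces Casp1 and Casp4 in macrophages, differed in direction. Ifngr2, a chain of the interferon gamma receptor, was 3.91-fold higher (CD4) and 3.07-fold higher (CD8) labelled knockout, though its other probe set gave log2 values of -0.02 and 0.66. Irf1, a transcription factor gene of this response, read 8621 on knockout CD4, 7785 on knockout CD8, 7154 on wildtype CD8 and 6120 on wildtype CD4. The receptor kinase gene Jak1 had log2 folds of 0.35 and -0.14. Irf8, a factor of myeloid and B cells, was 3.07-fold lower (CD4) and 8.64-fold lower (CD8) labelled knockout. Of 10 genes, 1 was at least 2-fold higher and 1 lower in each subset, with medians of 0.06 and -0.19. With median centring the CD8 median was 0.03, against 0.19 for all genes.

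Markers of other cells moved between the arrays too. Of 9 macrophage and monocyte markers, 7 lay above the floor on each array labelled wildtype, 4 on knockout CD4 and 3 on knockout CD8. Their summed signal was 6647 on wildtype CD8, 1210 on wildtype CD4, 595 on knockout CD8 and 814 on knockout CD4, led by Mpeg1 (4610 on wildtype CD8) and Tyrobp (883). The markers did not all run with the sum. Of 7 with a value in CD4 cells, 1 was at least 2-fold higher and 2 lower labelled knockout. The higher one was Fcgr3, at 231 on knockout CD4 against 108 on wildtype CD4. Csf1r was near level, between 193 and 238 on the arrays. Cd14 was below the floor on all 4 arrays. Of 9 dendritic cell markers, 9 were above the floor on wildtype CD8, 6 on knockout CD4, 5 on knockout CD8 and 4 on wildtype CD4, with a summed signal of 48714, 4441, 1662 and 4096 in that order, led by Cd74 and H2-Aa. Casp1 and Casp4, which myeloid cells are known to express, read 206 and 127 on wildtype CD8, the array with the most signal of both lists, and 1605 and 1129 on wildtype CD4, where the macrophage sum was above that of knockout CD4 and the dendritic cell sum below it.

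Of 7 B cell markers on the array, 2 to 4 were above the floor on each array, with a summed signal of 12616 to 16983 that was mostly Ighm; Cd22 followed on wildtype CD4 (1124) and Cd79b on the CD8 arrays (738 on knockout and 759 on wildtype), and Cd79a, Ms4a1 and Pax5 were below the floor on all 4. Natural killer cell markers summed to 271 on knockout CD4, 1863 on knockout CD8, 2499 on wildtype CD4 and 7392 on wildtype CD8, with 1 to 3 of 4 above the floor, led by Eomes and Klrk1; Ncr1 was below the floor on all 4. None of 6 granulocyte markers was above the floor on any array. T cell markers were similar, with a sum of 48224 to 52748 for Cd3d, Cd3e and Cd3g. The memory and effector list, which holds Cd44, was at least 2-fold lower on the arrays labelled knockout for 10 of 10 genes in each subset; it summed to 65918 on wildtype CD4, 64303 on wildtype CD8, 10309 on knockout CD8 and 2208 on knockout CD4, led by Ccl5 and Cxcr3. Naive T cell markers summed to 68931 on knockout CD4, 57562 on knockout CD8, 35177 on wildtype CD8 and 23920 on wildtype CD4, led by Il7r and Igfbp4. The part of any of these cell types or states in the caspase values was not tested, and in such bulk samples fewer cells of a type and less RNA per cell cannot be told apart.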

How the data were processed

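Extraction with TRIzol, biotin labelling and Affymetrix MOE430A_2.0 arrays are given per the labels. The authors deposited 1 linear signal intensity per probe set and array, and GCOS 1.4 and MAS5 are the tools in the submitters' processing notes; further steps are not stated. The 64 control probe sets of 22690 were dropped. A gene was represented by its probe set with the highest mean log2 signal among those with this symbol alone. Log2 was taken after raising every signal under the floor (40th percentile) to the floor. A fold with 1 array at the floor is a bound, and none is given where both are. With 1 array per group there is no p-value, and precision is limited by the number of arrays. Called means at least 2-fold apart. The computation was tested on simulated data. There were 8 pathway lists and 10 marker lists. The members and lists were chosen with earlier results of these data known. The genes named are those of each pathway list at least 2-fold apart in a subset, up to 6 by fold, and the 2 brightest others; the 5 genes nearest to Casp1 and Casp4 by profile; and the brightest markers of each list. Other markers, Casp12, Casp14, Nlrp3 and the genes of opposite direction were named after their values were seen. Alternatives were other floors, none, a pseudocount of 16, quantile normalization, median centring, averaged probe sets, and no multi-transcript probe sets. Software was numpy 2.4.6 and pandas 2.3.3 under Python 3.11.15, with figures from matplotlib 3.10.9.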

Additional observations from a re-analysis of the deposited data

Results flagged for a closer look

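Several genes had opposite directions in the subsets, at least 1.2-fold each way, on the single pair of arrays of each subset, and no test of these differences was possible. The log2 fold in CD8 minus that in CD4 cells was 3.18 for Casp1 and 3.17 for Casp4, on which the choice of the genes rested; the difference was not tested. It was 1.02 for Casp9, whose folds were -0.52 (CD4) and 0.50 (CD8) on the brighter probe set. For Pidd1, which encodes the caspase 2 scaffold, it was 1.36, with folds of -0.85 (CD4) and 0.52 (CD8). Il1b ran the other way at -1.87, with the wildtype-labelled CD4 array at the floor and a fold of -1.52 in CD8 cells. Txnip did so too at -1.16, with folds of 0.88 (CD4) and -0.28 (CD8) on its brighter probe set. The other probe set of Txnip had the same directions, at 1.02 (CD4) and -0.68 (CD8).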

How the results depend on the processing

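No paired analysis was possible because each group has 1 array, and for the same reason no array could be left out. Over the settings that gave a value, Casp1 kept its direction, with log2 folds from -2.07 to -1.75 in CD4 and from 1.06 to 1.33 in CD8 cells, as did Casp4, from -1.86 to -1.33 and from 1.21 to 1.52. Several settings could not change these folds, since each gene has 1 probe set, read above the lower floor on every array. These were the lower floor, no floor, averaged probe sets and no multi-transcript probe sets. Casp1 and Casp4 were also picked on these folds. With the floor at the 60th percentile (449.9) neither had a value in CD8 cells, since both arrays lay at the floor, and the count of caspases at least 2-fold higher in CD8 cells was 0 in place of 2. Casp9 had no value there in either subset. Its fold in CD8 cells was -0.16 with probe sets averaged, against 0.50, because the dimmer probe set enters the mean. The count of genes lower in CD4 and higher in CD8 cells was 7 with median centring and 5 without multi-transcript probe sets, against 8, beside the values for other floors given above. The share of all genes at least 2-fold lower in CD4 cells ran from 4.27% to 17.5%, and higher from 1.33% to 9.47%; in CD8 cells lower from 1.75% to 15.5% and higher from 0.576% to 8.48%. Of 306 recomputed values, 28 moved by more than 1.5-fold and 0 called values changed sign. Only the folds of Casp1 and Casp4 were called and could count as a change of sign. Smaller values did change sign, among them the fold of Casp9 in CD8 cells and some list medians. The PIDDosome list had no value without multi-transcript probe sets. With median centring the CD4 median of the apoptosome list turned from -0.13 to 0.18, and the CD8 median of the caspase substrates from -0.17 to 0.05. The median of all genes moved too, from -0.02 to 0.28 in CD4 and from -0.02 to 0.19 in CD8 cells.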
